A study of Mus musculus with 15 samples.

Results

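Olfactory sensory neurons turn the binding of an odorant into a membrane current with a small set of dedicated proteins. The 9 genes of that set described here were *Gnal*, *Gng13*, *Gng8*, *Adcy3*, *Cnga2*, *Cnga4*, *Ano2*, *Omp* and *Stoml3*. They were taken by name from the deposited count table of 54232 genes, and all 9 were among the 22151 genes that passed the filter on low counts. Their RNA was present in every library of the developing palate, at levels that differed between libraries of the same stage by up to 53.1-fold.

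The samples were dissected secondary palates of wild-type (WT) mouse embryos and newborns, with no other genotype and no treatment. Stages E13.5, E14.5, E15.5 and E16.5, in days of gestation, and newborns at P0 made up the 5 groups. Each group had 3 libraries, and each library was bulk RNA of the pooled palates of 3 embryos, so that replicates are pools and not single animals. A pooled dissection of this kind holds every tissue that came away with the shelves, and the upper side of the palate is the floor of the nasal cavity.

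In an olfactory neuron, each cell uses one odorant receptor out of a very large family, and the occupied receptor activates a G protein of the alpha subunit Golf (*Gnal*) with beta and gamma subunits, the latter including the product of *Gng13*. Golf stimulates adenylyl cyclase type 3 (*Adcy3*), and the cyclic AMP it makes opens a channel built from *Cnga2*, *Cnga4* and *Cngb1*. Calcium that enters through this channel opens the chloride channel of *Ano2*, which amplifies the current. *Omp* encodes the olfactory marker protein of mature neurons, *Stoml3* a stomatin-like protein of their cilia, and *Gng8* a gamma subunit of immature olfactory and of vomeronasal neurons. Several of these genes are also used elsewhere, *Gnal* in the striatum and other neurons and *Adcy3* in primary cilia of many cells.

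Promoters of olfactory neuron genes are known for sites of the EBF (Olf-1) factors, and the sequences upstream of 3 members are shown because they hold the core letters of such sites before the gene start. They were chosen by that match. RefSeq windows on GRCm38.p6, from 250 bases before to 50 after an annotated gene start, were at hand for 7 of the 9 members (11 windows), while *Omp* and *Gnal* had no entry. Only the 250 bases before the start are printed, 5′ to 3′ on the plus strand, with each match to the core letters CCCNNGGG in capitals. They are chrX:71991599-71991848 for *Cnga2*, chr17:25716922-25717171 for *Gng13* and, for *Ano2*, chr6:125710938-125711187, which lies before a later start inside the gene.
Cnga2: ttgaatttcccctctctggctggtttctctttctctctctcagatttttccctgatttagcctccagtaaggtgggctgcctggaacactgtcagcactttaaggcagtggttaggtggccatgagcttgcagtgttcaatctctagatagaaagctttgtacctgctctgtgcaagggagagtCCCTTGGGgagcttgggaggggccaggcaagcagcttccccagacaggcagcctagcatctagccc
Gng13: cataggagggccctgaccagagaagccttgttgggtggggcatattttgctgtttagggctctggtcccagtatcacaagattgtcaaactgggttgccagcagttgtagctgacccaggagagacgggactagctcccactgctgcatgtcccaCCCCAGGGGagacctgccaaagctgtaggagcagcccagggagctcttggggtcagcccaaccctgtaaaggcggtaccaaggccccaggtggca
Ano2: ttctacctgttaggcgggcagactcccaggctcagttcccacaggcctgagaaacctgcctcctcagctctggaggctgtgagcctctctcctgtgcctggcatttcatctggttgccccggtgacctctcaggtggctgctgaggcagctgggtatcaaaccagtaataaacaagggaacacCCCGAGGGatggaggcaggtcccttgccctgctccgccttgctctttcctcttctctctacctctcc

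The letters CCCNNGGG, which read the same on both strands, began 66 bases before the *Cnga2* start, 67 bases before this *Ano2* start, and 95 and 94 bases before the *Gng13* start, where the pair overlap. With a further match in *Cnga4* after the start, 4 of the 11 member windows held the letters, and other windows of *Ano2* and *Gng13* did not. The same letters stood in 13.7% of all 32851 windows of 300 bases and in 3.07% of the 944 windows of olfactory receptor genes. The longer form TCCCNNGGGA stood in 0 of the 11 member windows and in 0.904% of all windows. The homeodomain letters TAATTA stood in 0 of the 11 member windows, in 5.29% of all windows and in 18.6% of receptor windows. These are matches of letters and not measured sites.

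Before the members are taken in turn, the libraries need a description, because 4 of them stood apart. The olfactory receptor family (*Olfr* genes, 1107 in the table) was summed in each library in CPM (counts scaled to a library total of 1000000, after edgeR's TMM adjustment of the totals). The sum was 21.2, 24.6 and 36.7 CPM in E13.5 replicates 1, 2 and 3, and 35.0, 14.03 and 29.3 CPM at E14.5. It was 8.80, 199 and 176 CPM at E15.5, then 18.2, 49.0 and 59.0 CPM at E16.5, and 11.1, 31.6 and 268 CPM at P0. E15.5 replicates 2 and 3 and P0 replicate 3 were therefore rich in receptor RNA, and E15.5 replicate 1 was poorer than any other library. The number of receptor genes with at least 1 count ran from 81 in E15.5 replicate 1 to 1031 in E15.5 replicate 2, and was 129, 272 and 805 in the P0 libraries. P0 replicate 3 was the shallowest library, and with all libraries thinned to its total the E15.5 libraries had 41, 883 and 824. In bulk RNA, fewer olfactory neurons and less RNA per neuron cannot be told apart. The 15 libraries held 21470759 to 69019565 counts, at which 3 counts, taken as the detection floor for counting error only, equalled 0.0435 to 0.140 CPM on unadjusted totals.

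**Figure D1:**
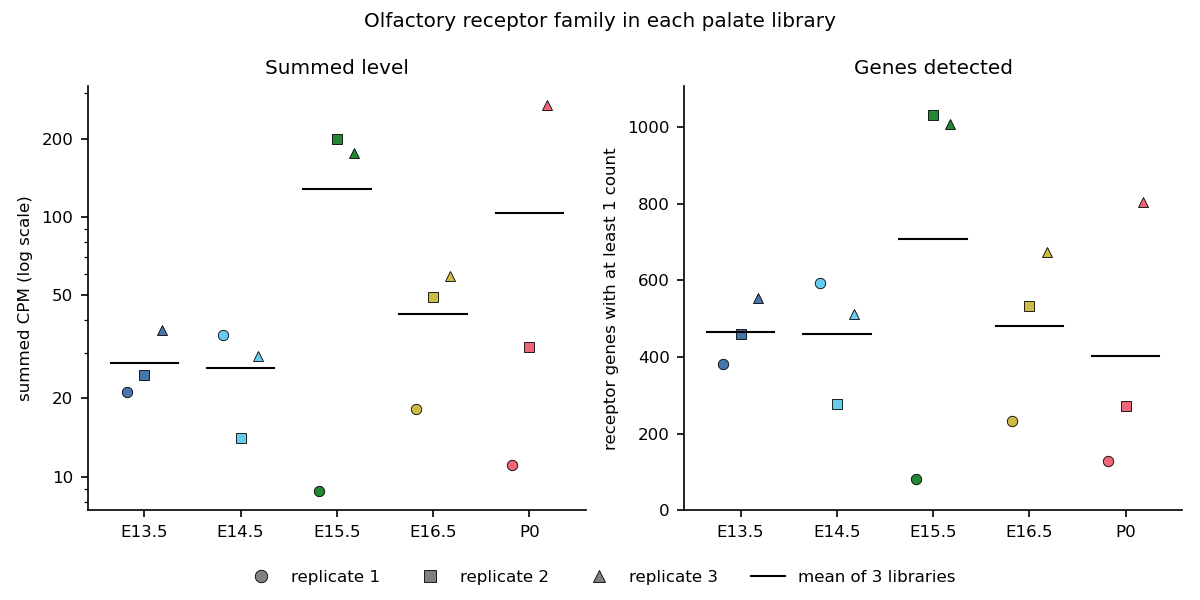
Olfactory receptor RNA in the 15 palate libraries: the left panel gives the summed CPM of 1107 receptor genes on a log scale and the right panel the number of these genes with at least 1 count, by stage, with 1 point per library and a bar at the mean of 3 libraries. E15.5 replicates 2 and 3 (199 and 176 CPM) and P0 replicate 3 (268 CPM) are high, while E15.5 replicate 1 (8.80 CPM) is the lowest library.

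The G protein subunits came first in the pathway and did not move alike. *Gnal* (ENSMUSG00000024524.16, chromosome 18, 67088336 to 67226792, GRCm38 here and below), the alpha subunit, was at 32.7, 34.8 and 25.8 CPM in E13.5 replicates 1, 2 and 3, and at 112, 80.9 and 55.8 CPM at E14.5. It was at 101, 61.9 and 49.9 CPM at E15.5, at 36.4, 124 and 56.0 CPM at E16.5, and at 90.4, 26.1 and 72.3 CPM at P0. Only E13.5 was low in all 3 libraries, and from E14.5 on the stages overlapped. *Gnal* was not called in any of the 5 contrasts. Its log2 fold change was 1.42 with a standard error (SE) of 0.49 from E13.5 to E14.5 (edgeR adjusted p 0.216) and 1.02 (SE 0.49, adjusted p 0.0939) from E13.5 to P0. Without P0 replicate 2 the latter was 1.41 (adjusted p 0.0199).

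*Gnal* did not follow the receptors: in E15.5 replicate 1, where receptor RNA was lowest, it was the highest of its stage. In each of the 5 stages the library with the most *Gnal* was also the one with the highest summed level of 14 genes of peripheral sensory and autonomic neurons, and of 8 genes used by vomeronasal neurons, a pattern noticed after the values were seen. For example, the trigeminal and sensory neuron gene *Avil* was at 207 CPM in E15.5 replicate 1, 284 CPM in E16.5 replicate 2 and 307 CPM in P0 replicate 1. Over the 15 libraries the Pearson r of log2 CPM between *Gnal* and the mean log2 CPM of the peripheral neuron list was 0.40. It was 0.35 after stage means were subtracted, and both are weak. With the vomeronasal list the values were weaker still, at 0.16 and 0.17. In every library 1 or 2 of the 8 genes of that list were at 0. The vomeronasal receptor family summed to at most 15.5 CPM in any library, so the list sum is no measure of vomeronasal neurons alone. The parts of peripheral and of vomeronasal neurons in the *Gnal* level were not tested.

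*Gng13* (ENSMUSG00000025739.13, chromosome 17, 25717171 to 25719406) encodes the gamma subunit of the pair. It was at 1.22, 1.65 and 2.48 CPM at E13.5 and at 2.13, 0.666 and 1.95 CPM at E14.5. At E15.5 it was at 0.371, 10.02 and 9.53 CPM, at E16.5 at 2.07, 5.03 and 4.40 CPM, and at P0 at 2.16, 3.23 and 32.9 CPM. The high libraries were those rich in receptor RNA, and P0 overlapped E13.5. From E13.5 to P0 it passed the test (log2 fold change 2.83, SE 1.12, adjusted p 0.0458), and when 1 library at a time was dropped it passed in 2 of 6 fits. Without P0 replicate 3 the log2 fold change was 0.63 (adjusted p 0.585). *Gng13* also serves taste and solitary chemosensory cells. Of 12 markers of such cells, *Gnat3*, the taste G protein, lay between 0 and 0.732 CPM, and *Calhm1* and *Calhm3* did not exceed 0.061 CPM in any library. Others were higher, with *Trpm5* between 11.7 and 44.7 CPM, and the 12 summed to 37.3 to 113 CPM. Their part in the *Gng13* level was not tested.

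*Gng8* (ENSMUSG00000063594.5, chromosome 7, 16891786 to 16895436) had another course. It was at 9.17, 8.97 and 11.8 CPM at E13.5 and at 5.02, 5.15 and 6.33 CPM at E14.5. It was at 8.06, 15.1 and 14.8 CPM at E15.5, at 4.47, 7.19 and 4.84 CPM at E16.5, and at 6.02, 2.68 and 17.8 CPM at P0. It was thus high at E13.5, when *Gng13* and the channel genes were low, and otherwise high in the same 3 libraries as they were. The E14.5 libraries all lay below those of E13.5 and of E15.5, but no contrast was called. From E14.5 to E15.5 the log2 fold change was 1.20 (SE 0.51, adjusted p 0.0978), and from E13.5 to P0 it was -0.18 (SE 0.50, adjusted p 0.771). The latter turned on P0 replicate 3, without which it was -1.18 (adjusted p 0.0178).

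*Adcy3* (ENSMUSG00000020654.15, chromosome 12, 4133103 to 4213525), the cyclase, had the narrowest spread of the 9. It was at 35.8, 27.9 and 37.7 CPM at E13.5, at 37.0, 37.9 and 38.1 CPM at E14.5 and at 42.1, 52.4 and 50.6 CPM at E15.5. It was at 45.6, 51.0 and 68.2 CPM at E16.5 and at 71.8, 63.3 and 69.0 CPM at P0. All E15.5 libraries lay above all E14.5 libraries, E15.5 replicate 1 included, and all P0 libraries above all E13.5 libraries. *Adcy3* rose from 33.8 ± 5.20 CPM (SD, n = 3) at E13.5 to 68.1 ± 4.33 CPM at P0, a log2 fold change of 1.01 (SE 0.16, adjusted p 0.000202), and dropping any 1 of the 6 libraries kept the call. Its levels did not follow receptor RNA, since P0 replicate 1, with 11.1 CPM of receptor RNA, held the most *Adcy3*. Across the 15 libraries its r with the log2 receptor sum was 0.37. It was 0.92 with the mean log2 CPM of 12 genes of ciliated and secretory nasal epithelium, those of a list of 15 that passed the filter. With that of 13 genes of oral epithelium it was 0.91. Both lists rose with stage too, and after stage means were subtracted the values were 0.42, 0.51 and 0.48.

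Of the channel subunits, *Cnga2* lay closest to the receptors. *Cnga2* (ENSMUSG00000005864.7, chromosome X, 71991849 to 72010218), the main subunit of the cyclic nucleotide-gated channel, was at 0.731, 0.592 and 1.20 CPM at E13.5 and at 1.25, 0.560 and 1.25 CPM at E14.5. It was at 0.371, 10.9 and 10.9 CPM at E15.5, at 1.06, 3.46 and 4.67 CPM at E16.5, and at 0.416, 2.65 and 22.1 CPM at P0. E15.5 replicate 1 and P0 replicate 1 were the lowest 2 of all 15 libraries for this gene, lower than any at E13.5. Its log2 fold change from E13.5 to P0 was 3.30 (SE 1.28, adjusted p 0.0416). With 1 library dropped at a time it was called in 2 of 6 fits, and it was 0.90 (adjusted p 0.499) without P0 replicate 3. From E14.5 to E15.5 the value was 2.86 (SE 1.25, adjusted p 0.107), and 3.41 (adjusted p 0.0447) without E15.5 replicate 1.

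*Cnga4* (ENSMUSG00000030897.5, chromosome 7, 105404568 to 105408742), a modulatory subunit of the same channel, was at 0.229, 0.296 and 0.371 CPM at E13.5 and at 0.296, 0.166 and 0.169 CPM at E14.5, which is 11 to 25 counts per library. It was at 0.202, 3.16 and 2.47 CPM at E15.5, at 1.47, 1.47 and 1.71 CPM at E16.5, and at 1.22, 2.04 and 5.83 CPM at P0. All libraries from E16.5 on lay above all libraries of E13.5 and E14.5, unlike *Cnga2*. It rose from E14.5 to E15.5 with a log2 fold change of 3.20 (SE 0.80, adjusted p 0.0135), and the adjusted p was 0.0561 without E14.5 replicate 2 and 0.0538 without E15.5 replicate 2. From E13.5 to P0 it rose by 3.32 (SE 0.80, adjusted p 0.00364) and kept the call when any 1 of the 6 libraries was dropped.

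*Ano2* (ENSMUSG00000038115.16, chromosome 6, 125690419 to 126040126), the calcium-activated chloride channel, was at 0.760, 0.916 and 1.35 CPM at E13.5 and at 1.50, 0.863 and 1.25 CPM at E14.5. It was at 1.79, 8.11 and 6.94 CPM at E15.5, at 1.90, 5.89 and 4.75 CPM at E16.5, and at 4.58, 2.29 and 12.4 CPM at P0. Even in E15.5 replicate 1 it lay just above every earlier library. The log2 fold change was 2.22 from E14.5 to E15.5 (SE 0.66, adjusted p 0.0282) and 2.66 from E13.5 to P0 (SE 0.68, adjusted p 0.00512). With 1 library dropped at a time the first was called in 1 of 6 fits (adjusted p 0.0123 to 0.101), where only the fit without E15.5 replicate 1 passed, and the second in 6 of 6.

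*Omp* (ENSMUSG00000074006.3, chromosome 7, 98143359 to 98145502), the marker of mature olfactory neurons, covered the widest range after *Stoml3*. It was at 0.975, 0.972 and 1.32 CPM at E13.5 and at 2.15, 1.15 and 1.88 CPM at E14.5. It was at 0.641, 30.3 and 29.9 CPM at E15.5, at 5.89, 13.7 and 17.5 CPM at E16.5, and at 2.33, 10.1 and 118 CPM at P0. The E16.5 and P0 libraries all exceeded those of E13.5 and E14.5, while E15.5 replicate 1 was the lowest of all 15. From E13.5 to P0 the log2 fold change was 5.32 (SE 1.43, adjusted p 0.00717), and 2.55 (adjusted p 0.0584) without P0 replicate 3. From E14.5 to E15.5 it was 3.55 (SE 1.32, adjusted p 0.0640), and 4.11 (adjusted p 0.0231) without E15.5 replicate 1.

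*Stoml3* (ENSMUSG00000027744.4, chromosome 3, 53488653 to 53508502) changed most. It had 4, 5 and 3 counts at E13.5 (0.0573, 0.0704 and 0.0446 CPM) and 17, 3 and 6 counts at E14.5 (0.265, 0.0454 and 0.0843 CPM). It was at 0.455, 11.5 and 8.01 CPM at E15.5, at 8.55, 8.83 and 9.18 CPM at E16.5, and at 6.68, 16.6 and 35.0 CPM at P0. The counts of 3 in E13.5 replicate 3 and E14.5 replicate 2 were at the detection floor, and every library from E15.5 on lay above every earlier one. The log2 fold change was 5.65 from E14.5 to E15.5 (SE 1.05, adjusted p 0.00344) and 8.34 from E13.5 to P0 (SE 1.19, adjusted p 0.000107), and both were called in 6 of 6 fits with 1 library dropped. Summed over the 3 libraries of a stage, 1589 counts at P0 stood against 12 at E13.5, a ratio of 300.1 on the TMM scale with an exact 95% interval of 171 to 582 for counting error only. At E16.5 its 3 libraries agreed within 1.07-fold, although their receptor sums differed 3.24-fold.

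**Figure D2:**
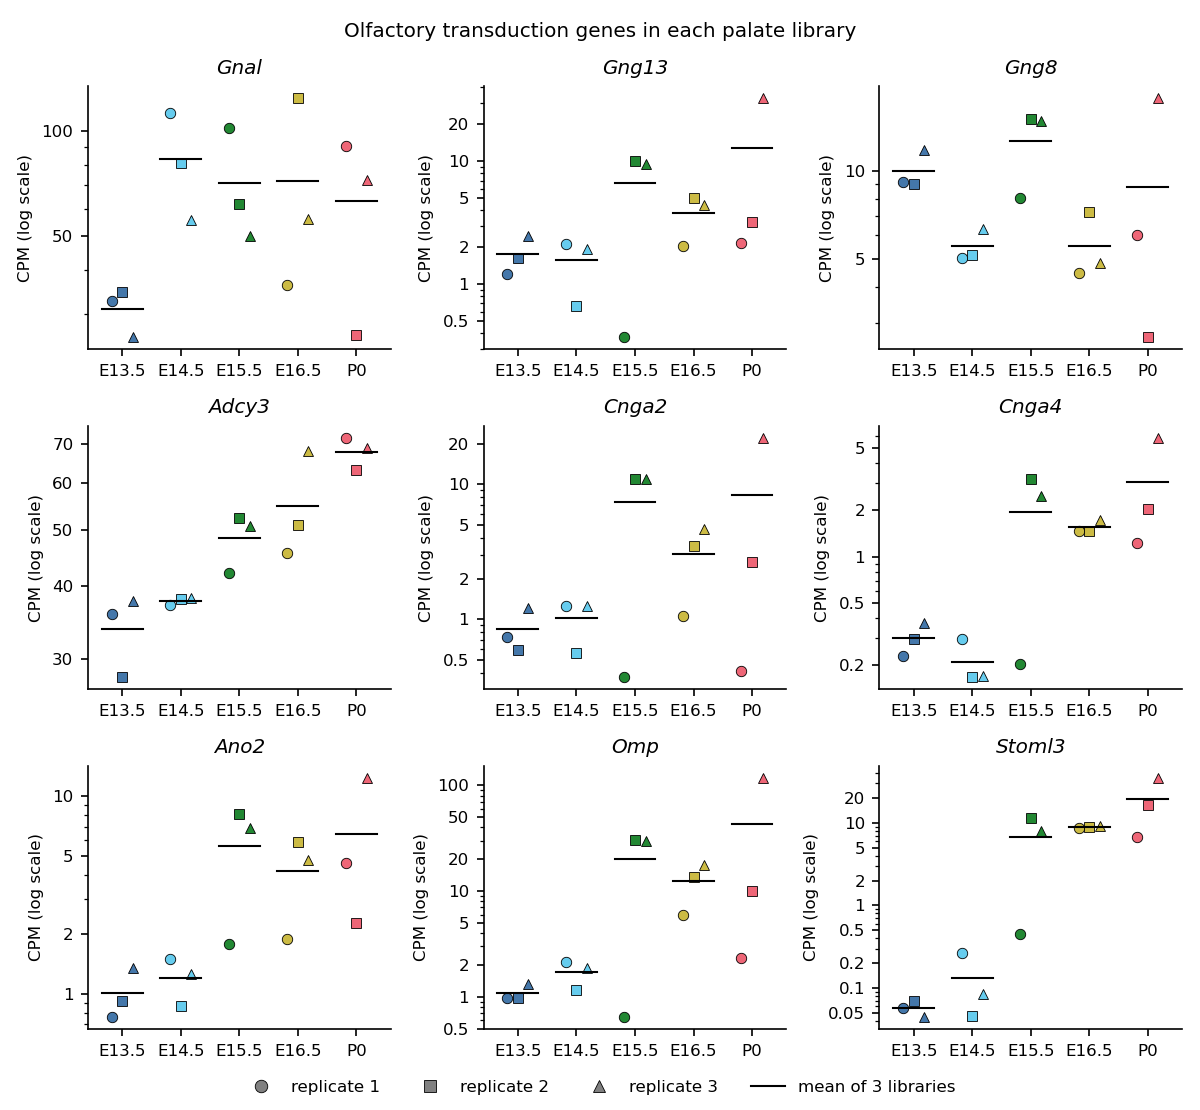
CPM of the 9 genes on log scales by stage, with 1 point per library, a shape for each replicate number and a bar at the mean of 3 libraries. *Gng13*, *Cnga2*, *Cnga4*, *Ano2*, *Omp* and *Stoml3* are lowest at E15.5 in replicate 1 and highest at P0 in replicate 3, *Adcy3* climbs with little spread, and *Gnal* shows neither pattern.

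Counted together, 3 of the 9 genes were higher at E15.5 than at E14.5 (*Stoml3*, *Cnga4* and *Ano2*) and 0 were lower, with a median log2 fold change over the 9 of 2.22 against 0.03 over all tested genes. Of all tested genes, 26.1% were called in that contrast and 12.7% were called higher. In 4 of the 9 (*Stoml3*, *Ano2*, *Adcy3* and *Gng8*) every E15.5 library lay above every E14.5 library, as in 24.0% of all genes. From E13.5 to P0, 7 of the 9 were higher and 0 lower, all but *Gnal* and *Gng8*, with a median of 2.83 against 0.03. In that contrast 56.6% of all genes were called and 29.8% of all genes were called higher. Every P0 library exceeded every E13.5 library for 5 of the 9 (*Stoml3*, *Omp*, *Cnga4*, *Ano2* and *Adcy3*), against 30.2% of all genes.

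Between the other neighbouring stages 0 of the 9 were called by edgeR, and 0 by DESeq2. At an unadjusted p under 0.05 by edgeR there was 1 member between E13.5 and E14.5 (*Gnal*), 1 between E15.5 and E16.5 (*Gng8*) and 0 between E16.5 and P0, against 3538, 4830 and 2602 of all 22151 genes at the same unadjusted level. At the adjusted threshold 0.00903%, 1.41% and 0.352% of all genes were called in these contrasts. Over the 5 stages as a whole, 5 of the 9 differed (*Stoml3*, *Adcy3*, *Cnga4*, *Ano2* and *Omp*), against 59.1% of all genes. When the stages of each gene were ordered by mean CPM, the libraries of neighbouring stages in that order overlapped in 31 of 36 pairs. The 5 pairs that did not were E16.5 above E14.5 for *Omp* and *Ano2*, E16.5 above E13.5 for *Cnga4*, and E15.5 above E14.5 for *Adcy3* and *Stoml3*. Per kilobase of exon, which allows genes to be compared, the mean level over the 15 libraries ran from 11.1 FPKM for *Gnal*, 7.78 for *Adcy3*, 7.37 for *Omp*, 6.88 for *Gng13*, 5.58 for *Gng8* and 3.27 for *Stoml3* to 1.34 for *Cnga2*, 0.684 for *Ano2* and 0.528 for *Cnga4*. FPKM here are CPM per kilobase. The medians over the 15 libraries came in another order. They were 9.72 for *Gnal*, 7.31 for *Adcy3*, 4.73 for *Gng8*, 3.11 for *Stoml3*, 2.80 for *Gng13* and 1.09 for *Omp*. *Cnga4*, *Cnga2* and *Ano2* had medians of 0.458, 0.403 and 0.353.

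How far the members moved with the receptors was described by Pearson correlations of log2 CPM over the 15 libraries, which share library, depth and normalization. *Cnga2* had an r of 0.97 with the log2 receptor sum (Spearman rho 0.95), and 0.94 without the 2 libraries farthest from the median receptor sum. Over all 15 libraries r was 0.93 for *Gng13*, 0.87 for *Omp*, 0.73 for *Ano2*, 0.72 for *Cnga4*, 0.61 for *Gng8* and 0.53 for *Stoml3*, while *Gnal* was at -0.02. Without those 2 libraries, E15.5 replicate 2 and P0 replicate 3, most values were lower. They were 0.87 for *Gng13*, 0.76 for *Omp*, 0.52 for *Ano2* and *Cnga4*, 0.33 for *Stoml3* and 0.32 for *Gng8*. *Adcy3* was then at 0.16 and *Gnal* at -0.17. With all 15 libraries, stage means were then subtracted, so that only the spread between pools of the same age remained. The values were 0.99 for *Omp* and *Cnga2*, 0.98 for *Gng13*, 0.94 for *Cnga4*, 0.89 for *Stoml3*, 0.86 for *Ano2*, 0.69 for *Gng8*, 0.42 for *Adcy3* and -0.12 for *Gnal*. Among members the closest pair by that measure was *Omp* and *Cnga2* (0.99). By that measure 6 of the 9 genes varied with receptor RNA among pools of 1 age, *Gnal* and *Adcy3* did so little, and *Gng8* lay between. The measure was not repeated without the libraries that stood apart at E15.5 and P0. At E16.5 the receptor sums were 18.2, 49.0 and 59.0 CPM. *Stoml3* (8.55, 8.83 and 9.18 CPM) and *Cnga4* (1.47, 1.47 and 1.71 CPM) varied little there, so the group of 6 was not uniform.

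**Figure D3:**
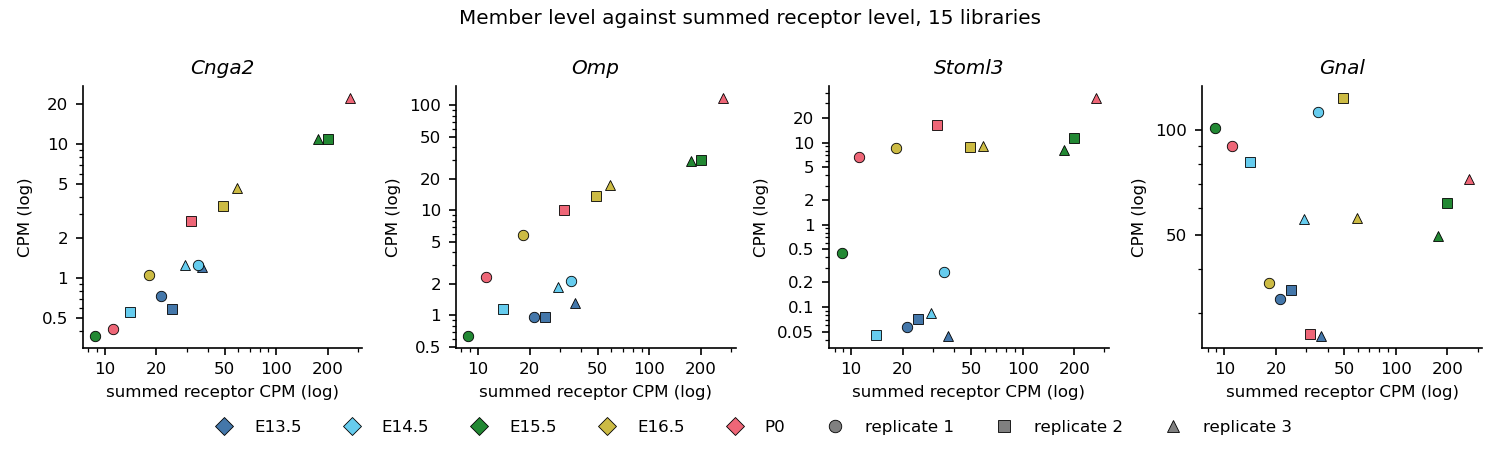
CPM of *Cnga2*, *Omp*, *Stoml3* and *Gnal* against the summed CPM of the olfactory receptors, both on log scales, with 1 point per library, colours for stages and shapes for replicates. *Cnga2* lies near 1 line for all stages (r 0.97), *Omp* and *Stoml3* lie higher at the same receptor sum in later stages, and *Gnal* shows no relation (r -0.02).

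To set the members against the olfactory RNA in the same library, their counts were also taken per 100 receptor counts, a measure chosen after the values were seen and given without a test. *Omp* was at 4.61, 3.95 and 3.605 per 100 receptor counts at E13.5, at 6.14, 8.20 and 6.43 at E14.5 and at 7.28, 15.2 and 17.04 at E15.5. It was at 32.3, 28.0 and 29.7 at E16.5 and at 20.9, 32.0 and 44.0 at P0. All E16.5 and P0 libraries lay above all earlier ones, P0 replicate 1 included, which had little olfactory RNA. *Stoml3* went from 0.226 ± 0.0910 (SD, n = 3) at E13.5 to 5.17 ± 0.601 at E15.5 and 41.9 ± 25.3 at P0, and on this scale E15.5 replicate 1 (5.17) lay between replicates 2 and 3 (5.77 and 4.56). *Cnga2* moved less, from 3.05 ± 0.563 at E13.5 to 6.78 ± 2.64 at P0.

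Other genes of the olfactory epithelium had other courses on that scale. *Rtp1*, which carries receptors to the cell surface, was at 16.2 ± 1.83 per 100 receptor counts at E13.5 and at 13.2 ± 4.21 at P0. *Lhx2*, a homeodomain factor of olfactory progenitors and neurons, went from 234 ± 131 to 23.2 ± 9.24, and *Neurog1*, a factor of neuronal precursors, from 31.6 ± 17.6 to 2.07 ± 0.649. *Lhx2* is also used in the brain and in hair follicles, and *Neurog1* in the trigeminal ganglion, and their parts were not tested. In E15.5 replicate 1 the ratio rests on few genes, since 64.0% of its receptor counts came from *Olfr78*, *Olfr558* and *Olfr1033*. Without these 3 genes *Omp* was at 20.2, 15.6 and 17.6 per 100 receptor counts in the E15.5 libraries, and at 4.55 ± 0.754 at E13.5 and 43.0 ± 4.79 at P0. *Stoml3* was then at 14.4, 5.92 and 4.72 in the E15.5 libraries, so that replicate 1 was the highest and not between the others. *Rtp1* was at 18.1 ± 1.45 at E13.5 and 17.8 ± 2.38 at P0.

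**Figure D4:**
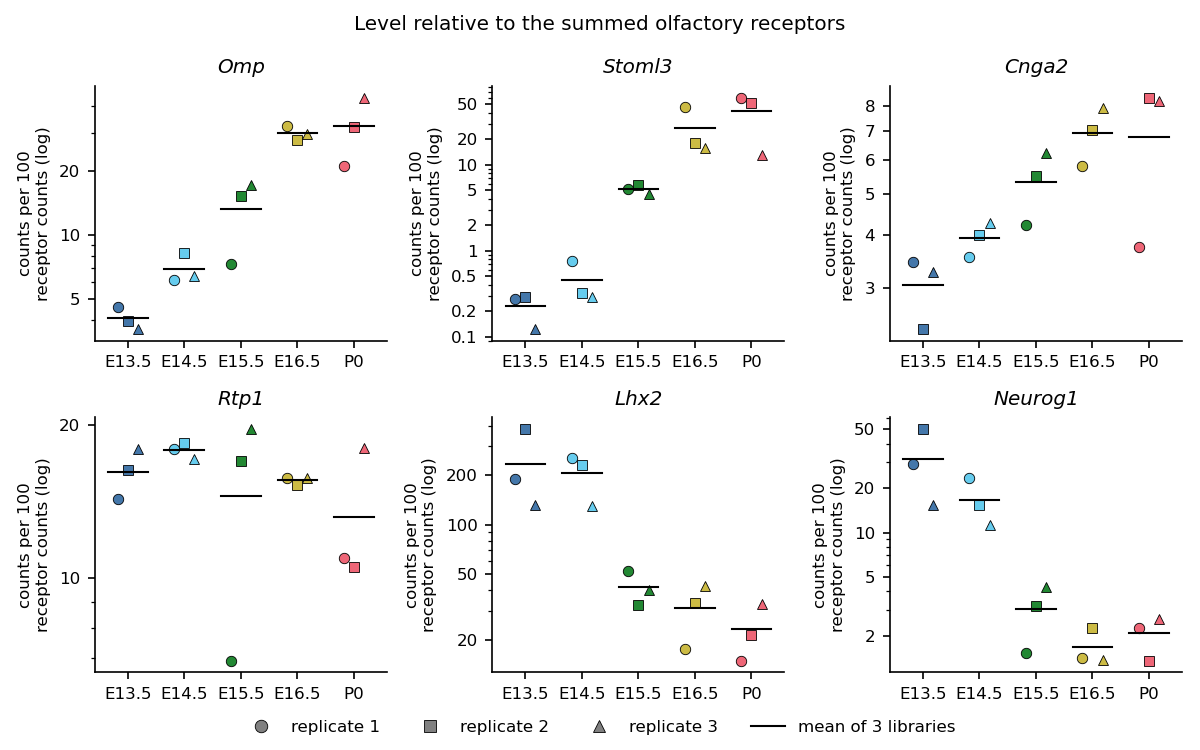
Counts of 6 genes per 100 counts of the summed olfactory receptors, on log scales by stage, with 1 point per library and a bar at the mean of 3 libraries. *Omp* and *Stoml3* are higher at E16.5 and P0 than at E13.5 in every library, *Lhx2* and *Neurog1* are lower in every library, and *Rtp1* stays between 6.90 and 19.6.

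The rest of the pathway was followed through a list of 12 partners. Over all tested genes, 26.1% were called from E14.5 to E15.5 and 12.7% were called higher. From E13.5 to P0 the shares were 56.6% and 29.8%. From E14.5 to E15.5, 1 of the 12 was higher and 2 were lower (median log2 fold change 0.06 against 0.03 over all genes), and from E13.5 to P0, 4 were higher and 1 was lower (median 0.60 against 0.03). The gene higher in both was *Cngb1*, the third subunit of the channel, with log2 fold changes of 1.83 (SE 0.49, adjusted p 0.0178) and 2.37 (SE 0.50, adjusted p 0.00153). It was at 0.713 to 0.986 CPM at E13.5, at 1.79, 4.93 and 3.37 CPM at E15.5 and at 2.58, 2.59 and 8.80 CPM at P0. *Slc24a4*, the sodium-calcium exchanger that ends the response, rose from E13.5 to P0 by 1.75 (SE 0.38, adjusted p 0.00198). *Cngb1* and *Slc24a4* were named after their values were seen. Other calls were in widely used genes: *Gnas*, the general stimulatory alpha subunit, rose from E13.5 to P0 (0.94), *Ric8b*, a chaperone of Golf, fell in both contrasts (-0.60 and -0.58), and *Gnb1*, a beta subunit, fell from E14.5 to E15.5 (-0.46). *Rtp1* followed the receptors, at 0.607, 33.9 and 34.5 CPM at E15.5 and at 1.22, 3.32 and 48.4 CPM at P0, and was not called.

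Genes of the neuronal lineage of the olfactory epithelium did not rise with the members between stages, but varied with most of them among pools of the same age. After stage means were subtracted, their mean log2 CPM had an r of 0.95 with *Omp*, 0.94 with *Cnga2* and 0.92 with *Gng13*. It was 0.86 with *Cnga4*, 0.83 with *Stoml3*, 0.82 with *Ano2*, 0.71 with *Gng8*, 0.25 with *Adcy3* and 0.05 with *Gnal*. Among all tested genes, 26.1% were called in E15.5 against E14.5 and 56.6% in P0 against E13.5, with 12.7% and 29.8% called higher. Of the 16 lineage genes, 1 was higher and 2 were lower at E15.5 than at E14.5 (median -0.27). At P0, 1 was higher and 3 were lower than at E13.5 (median -0.94). The gene higher in both was *S100a5*, a calcium-binding protein of mature olfactory neurons, named after its values were seen, which was at 0.0573, 0.0141 and 0.208 CPM at E13.5 and at 0 to 0.014 CPM at E14.5. It was at 0.0169, 0.790 and 0.665 CPM at E15.5 and at 0.139, 0.335 and 8.88 CPM at P0, so that P0 overlapped E13.5 and was high in replicate 3. Those lower at P0 were *Ebf1*, *Ebf2* and *Ebf3*, of the factor family whose core letters are marked in the sequences above, with log2 fold changes of -0.98, -0.97 and -1.95 (adjusted p 0.00230, 0.0362 and 0.00115). These 3 factors are expressed in mesenchyme as well, and *Ebf1* was at 101, 115 and 93.7 CPM in the E15.5 libraries, with no sign of the gap in replicate 1. Lower at E15.5 than at E14.5 were *Ebf3* (-1.38, adjusted p 0.0214) and the growth cone gene *Gap43* (-1.07, adjusted p 0.0338).

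Markers of the other cells of the nasal lining were read beside the members to see whether nasal tissue was in the dissections. For comparison, 12.7% of all tested genes were called higher at E15.5 than at E14.5 and 29.8% at P0 than at E13.5. Of 10 genes of sustentacular cells and Bowman glands, the supporting and secretory cells of olfactory epithelium, 8 passed the filter, 4 were higher at E15.5 than at E14.5 and 5 at P0 than at E13.5. Their summed level was 11.7 to 35.0 CPM at E13.5, 14.7 to 32.0 at E14.5, 79.0, 418 and 407 at E15.5, 1128, 547 and 523 at E16.5 and 826, 991 and 1070.0 at P0. At E16.5 the sum was thus highest in replicate 1, where *Omp* (5.89 CPM) and the receptor sum (18.2 CPM) were lowest, and at P0 it varied far less than *Omp*. *Cyp2g1*, a cytochrome of the olfactory lining named after its values were seen, was at 0.219, 38.2 and 33.3 CPM at E15.5 and at 0.666, 3.75 and 51.4 CPM at P0, so that it was high in the same 3 libraries as *Omp*. At E16.5 *Cyp2g1* was at 11.7, 20.4 and 21.5 per 100 receptor counts. It was thus lowest in replicate 1 like *Omp* and the receptor sum, unlike the sum of the list. *Cyp2a5* was at 0.725, 40.3 and 31.6 CPM at E15.5 and at 14.4, 35.1 and 228 CPM at P0, though its near-identical neighbours make its counts uncertain. The 4 genes called at E15.5 were *Cyp2a5*, *Sec14l3*, *Cbr2* and *Muc5b*, of which the last 3 are also genes of the respiratory lining and glands. *Ugt2a1* lay between 0 and 0.0435 CPM, but 98.8% of its exonic bases are shared with other genes, so its level is uncertain.

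Ciliated and secretory nasal epithelium was also present. The counts called in this paragraph stand beside 26.1% of all tested genes called at E15.5 against E14.5, with 12.7% higher. At P0 against E13.5 these shares were 56.6% and 29.8%. Of 15 ciliated and secretory genes, 12 passed the filter, 8 were higher at E15.5 than at E14.5 and 11 at P0 than at E13.5. The summed level was 12.1 to 17.2 CPM at E13.5, 35.1 to 67.6 at E14.5, 178, 743 and 791 at E15.5, 1932, 605 and 865 at E16.5 and 1522, 1649 and 2332 at P0. As with the sustentacular list, E16.5 replicate 1 was the highest of its stage, and the library highest for this list was the highest for *Omp* in 2 of 5 stages. *Bpifa1*, a secreted protein of the upper airway, was at 13.6, 319 and 371 CPM at E15.5, and *Foxj1*, the regulator of motile cilia, at 81.6, 181 and 197 CPM. *Obp1a* was at 0 in all 15 libraries. *Stoml3* had an r of 0.97 with the mean log2 CPM of this list, 0.96 with the sustentacular list, 0.96 with the oral list and 0.53 with the receptor sum. After stage means were subtracted these were 0.90, 0.93, 0.66 and 0.89. Genes of the oral side moved as well. The 13 genes summed to 391, 897 and 1815 CPM at E15.5. After stage means were subtracted, their mean log2 CPM had an r of 0.91 with *Cnga2* and 0.87 with *Omp*. The values were 0.84 and 0.88 for the ciliated and secretory list, and 0.96 and 0.98 for the sustentacular list. The library with the most *Cnga2* was the highest for the oral list in 5 of 5 stages, and for the sustentacular and the ciliated and secretory lists in 2 of 5 each. These counts rest in part on near ties of *Cnga2*. It was at 1.246 and 1.250 CPM in E14.5 replicates 1 and 3, and at 10.94 and 10.95 CPM in E15.5 replicates 2 and 3. For *Omp* the same count was 3 of 5 for the oral list and 4 of 5 for the sustentacular list. Of the 13 oral genes, 5 were higher at E15.5 than at E14.5 and 10 at P0 than at E13.5. Of 12 taste and chemosensory genes, 9 passed the filter, and 2 and 4 were higher. Of 14 peripheral neuron genes, 0 were higher and 2 lower at E15.5, and 2 were higher and 1 lower at P0. They summed to 2661, 1251 and 1022 CPM at E15.5 and to 2937, 1401 and 821 CPM at P0, highest in replicate 1 of both stages, where *Omp* was lowest. Of 8 vomeronasal genes, 6 passed the filter, and 0 were higher and 1 was lower in each contrast. *Trpc2*, the channel of vomeronasal neurons, was at 0 in all libraries, but 100% of its exonic bases are shared with other genes. Of 14 genes of forebrain, choroid plexus and eye, 0 were higher in both contrasts, and 2 and 1 were lower. The choroid plexus gene *Ttr* was highest in E14.5 replicate 1, at 1224 CPM, where *Omp* was at 2.15 CPM.

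In these dissections, then, some receptor genes, sustentacular genes and ciliated and secretory nasal genes had counts in every library, and their levels varied among pools of the same age. In E15.5 replicate 1 only 81 of 1107 receptor genes had a count, and 64.0% of its receptor counts came from *Olfr78*, *Olfr558* and *Olfr1033*. At E13.5, 5 to 8 of the 15 ciliated and secretory genes were at 0, and the list summed to 12.1 to 17.2 CPM. The receptor sum had an r of 0.86 to 0.99 with *Omp*, *Cnga2*, *Cnga4*, *Gng13*, *Ano2* and *Stoml3* after stage means were subtracted. With the same genes r was 0.81 to 0.98 for the sustentacular list and 0.75 to 0.93 for the ciliated and secretory list. The oral list varied with these genes as well (0.66 to 0.91). By these markers nasal lining was part of the sampled tissue. Its share of each member's RNA was not tested. A change with age and a change in what was dissected at each age cannot be told apart.

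The genes whose pattern was most like the members' were ranked by Pearson r with the mean standardized log2 CPM of *Omp*, *Cnga2*, *Cnga4*, *Gng13* and *Stoml3*, among 17473 genes other than members and receptors. Over the 15 libraries the 10 highest were *Gm20531* (r 0.985), *Atp6v1b1* (0.958), *Dapl1*, *Pon1*, *Muc2*, *Sult2b1*, *Abca13*, *Cdh26*, *Iqck* and *Gal3st2c* (0.944). *Atp6v1b1*, a proton pump subunit, averaged 2.28 CPM at E13.5, 22.2 CPM at E15.5 and 22.5 CPM at P0. After stage means were subtracted, the 10 were *Gfy* (r 0.995), *BC049352*, *Rd3*, *Rtp1*, *Gm10686*, *Arl14epl*, *Slco4c1*, *Ermn*, *Rtp2* and *Mslnl* (0.986). *Gfy*, a Golgi protein of olfactory neurons, averaged 6.44 CPM at E13.5, 38.0 CPM at E15.5 and 37.4 CPM at P0, and *Rtp1*, *Rtp2* and *Ermn* were members of the lists above. The 2 rankings shared 0 genes.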

How the data were processed

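Bulk RNA-seq of secondary palates was deposited as 1 table of raw read-pair counts per gene, in which the authors counted fragments on the reverse strand with featureCounts 2.0.1 and an annotation named GENCODE M18, per the file headers. The submitters' processing notes list cutadapt 3.4, FastQC 0.11.9, Bowtie2, HISAT2 2.2.1, SAMtools 1.12, Subread 2.0.1 and the build mm10, without their roles. Gene symbols and positions came from a GENCODE annotation of GRCm38 by gene identifier, and 97.5% of genes had the position given in the table.

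Libraries were grouped by the labelled stage. Genes were kept by edgeR's filterByExpr (minimum count 10), scaled by TMM and fitted in 1 quasi-likelihood model over 15 libraries (edgeR 4.0.16, R 4.3.3), with 5 contrasts and an F test over stages. p-values were adjusted by Benjamini-Hochberg over 22151 genes at a threshold of 0.05. Each SE was worked back from the test, as the absolute log2 fold change divided by the square root of the F statistic. It was not estimated separately by the model. The fit was tested on simulated data first. The p-values measure the spread between 3 pools per stage, and whether the pools are independent litters is not given in the sources used here. The common biological coefficient of variation was 0.332, and log2 CPM for correlations used a prior count of 2. Mean log2 CPM of a list used only its genes that passed the filter. Depth was 21470759 to 69019565 counts per library. None of the 9 genes shares exonic bases with another gene on its strand.

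The members and the marker lists were chosen with earlier results of these data known. All 9 members are named. List genes were named where called in E15.5 against E14.5 or P0 against E13.5 (up to 4 per list by mean CPM), where highest in their list, or as defining markers, and others are marked as named after their values were seen. The likeness ranking took genes of at least 1 CPM in 1 stage, and named 10 per measure. Alternatives were DESeq2 1.42.0, other scalings and filters, the libraries of 1 contrast alone, a replicate block, thinning and leaving out each library. Protein sequences and the promoters of *Omp* and *Gnal* were not used here. The values of 1 gene of the partner list are not reported here.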

Additional observations from a re-analysis of the deposited data

How the results depend on the processing

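From E14.5 to E15.5, where 3 members were called, 6 were called by DESeq2 (*Stoml3*, *Cnga4*, *Ano2*, *Omp*, *Cnga2* and *Gng8*) and 5 with only the 6 libraries of the contrast (*Stoml3*, *Cnga4*, *Ano2*, *Adcy3* and *Gng8*). Leaving out each library in turn gave 1 to 5, with 1 (*Stoml3*) when replicate 2 of either stage was dropped and 5 when E15.5 replicate 1 was. From E13.5 to P0, where 7 were called, leaving out each library gave 5 to 8, DESeq2 gave 7 and the 6 libraries alone gave 5, without *Gng13* and *Cnga2*. Over all stages, where 5 differed, leaving out each library gave 5 to 7 and DESeq2 7, and a fit on 6 libraries could not be made. The other 3 contrasts stayed at 0 under every alternative run. The log2 fold change of *Gnal* from E14.5 to E15.5 ran from -0.58 to 0.048 with each library left out, above 0 without E14.5 replicate 1. That of *Gng8* from E13.5 to P0 ran from -1.18 to 0.28, above 0 without P0 replicate 1 (0.062) and P0 replicate 2 (0.28). The values above 0 were not called. Thinned to the smallest total, 260 receptor genes had a count at E13.5 and 249.0 at E14.5 on average, and *Omp* at E16.5 was at 41.3 per 100 receptor counts without *Olfr78*, *Olfr558* and *Olfr1033*. Causes were not tested, except that fewer libraries or counts entered where these were left out.

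With the replicate number as a block, 3 members were called from E14.5 to E15.5, 5 from E13.5 to P0 (*Gng13* at 2.25, adjusted p 0.0835, and *Cnga2* at 2.39, adjusted p 0.101, by edgeR were not) and 4 over all stages. The main fit did not take the numbers as pairs. Over 30 pairs with the same number in 2 stages the correlation of deviations from the stage mean ran from -0.30 to 0.55, and 9 pairs were over 0.1. These values cannot show whether pools with the same number shared a litter or a batch.

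With 3 pools per stage, of which 1 at E15.5 and 1 at P0 lay far from the others, fold changes of the receptor-linked members had standard errors up to 1.43. *Stoml3* before E15.5 rested on 3 to 17 counts per library.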

Other observations

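A few receptor genes did not follow the family. *Olfr78*, which is also used outside the nose, was at 3.46, 3.10 and 3.69 CPM in the E15.5 libraries and at 1.19, 5.34 and 5.399 CPM at P0. *Olfr558* was at 0.910, 1.15 and 1.07 CPM and *Olfr1033* at 1.26, 0.999 and 1.07 CPM at E15.5, with no gap in replicate 1. *Olfr15*, by contrast, was at 0.0169, 6.14 and 5.27 CPM at E15.5 and *Olfr536* at 0.0169, 2.00 and 2.57 CPM. Of the 238 receptor genes tested by edgeR, 9 were called higher at E15.5 than at E14.5 and 0 lower, and 34 higher and 2 lower at P0 than at E13.5. These 238 were the receptor genes, of 1107, that passed the filter on low counts. Genes could pass it through the receptor-rich libraries at E15.5 and P0, so the direction of these calls tests nothing about the family. Of all 22151 tested genes, 12.7% and 29.8% were called higher, a larger share than of the receptor genes in both contrasts.

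The 322 vomeronasal receptor genes summed to 1.43, 11.4 and 15.5 CPM at E15.5 but to 0.999, 3.17 and 3.88 CPM at P0, where olfactory receptors reached 268 CPM in replicate 3. The 14 trace amine receptor genes summed to 0.0169, 1.09 and 0.969 CPM at E15.5 and to 0.111, 0.457 and 0.305 CPM at P0.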
